A study of Mus musculus with 20 samples.

Results

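The cytosolic ribosomal protein genes encode the protein parts of the ribosome that translates nuclear messages. The members were the protein-coding genes of the mouse annotation (GENCODE M1) whose symbols begin with Rpl or Rps followed by a number, plus Rplp0, Rplp1, Rplp2 and Rpsa, with the Rps6k kinases left out. This rule found 85 annotated genes, 51 of the large subunit and 34 of the small subunit. All but Rpl10l, which had 0 counts, were among the 26830 genes with at least 1 count. The samples were right liver lobes of male CD-1 IGS mouse fetuses at embryonic day 18.5, from dams under maternal nutrient restriction (MNR) or from control dams. There were 10 MNR and 10 control fetuses, drawn as 2 fetuses from each of 5 litters per group, and no allele or other agent was named for either group. The litter was the replicate, so the counts of littermates were added before any comparison. The severity and the onset of the restriction are not part of the labels used here. Libraries were made from polyadenylated RNA of whole liver tissue, in which fewer cells of a type and less RNA per cell cannot be told apart.

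Each ribosome holds a single copy of most of these proteins, and the large subunit also carries a stalk built from Rplp0, Rplp1 and Rplp2. Many ribosomal protein messages start with a C followed by a run of pyrimidines, the 5′ terminal oligopyrimidine (TOP) motif, through which mTORC1 signalling controls their translation when nutrients are short. That control acts on translation, and the measurements here are of RNA only. Fetal liver is both a metabolic organ and a site of blood formation, and dividing hepatocytes and erythroid precursors make ribosomes at a high rate.

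Several members have a second gene that encodes the same or a related protein. The sequences of 2 such pairs are shown because the comparisons below turn on the relative level of the 2 genes. The first 120 coding bases of each gene are given 5′ to 3′ from the GENCODE M1 transcripts (build NCBIM37), with capitals at the bases that differ within the pair. Rpl36a lies at chrX:131120193-131122601 on the plus strand and Rpl36al at chr12:70283718-70285070 on the minus strand.
Rpl36a: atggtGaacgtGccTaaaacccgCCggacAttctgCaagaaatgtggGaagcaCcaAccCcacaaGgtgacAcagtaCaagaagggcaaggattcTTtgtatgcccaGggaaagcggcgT
Rpl36al: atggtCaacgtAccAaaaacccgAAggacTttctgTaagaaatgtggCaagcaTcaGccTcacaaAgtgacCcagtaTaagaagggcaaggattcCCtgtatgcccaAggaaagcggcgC
These stretches differ at 18 bases, while the 106 residues of the encoded proteins were identical at every position. Across the whole coding sequence the pair had 87.9% identical bases. Rps27 lies at chr3:90016593-90017573 on the minus strand and Rps27l at chr9:66793893-66797323 on the plus strand.
Rps27: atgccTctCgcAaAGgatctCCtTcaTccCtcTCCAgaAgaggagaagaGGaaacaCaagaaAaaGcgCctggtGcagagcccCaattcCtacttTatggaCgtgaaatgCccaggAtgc
Rps27l: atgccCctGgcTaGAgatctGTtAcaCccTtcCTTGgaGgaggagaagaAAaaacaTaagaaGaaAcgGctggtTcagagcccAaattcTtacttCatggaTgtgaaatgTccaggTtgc
Here 28 bases differed, the whole coding sequences were 76.1% identical, and 3 of 84 residues differed. The other measured pairs were further apart, with 70.3% identical residues for Rpl22 and Rpl22l1, 40.7% for Rpl7 and Rpl7l1, and 93.2% for Rps4x and Rps4y2. RefSeq lists Rps4y2 as Rps4l and classes it as a transcribed pseudogene.

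The start of the message is shown for members whose tract could be read from the promoter table. RefSeq promoters (GRCm38.p6, 250 bases before to 50 after the annotated start) matched 63 of 85 members. A tract was searched as a C followed by at least 4 pyrimidines on the sense strand, beginning within 5 bases of the annotated start. It was found for 29 of the 63 members (46.0%), against 21.2% of 27025 symbols in the same table. A C exactly at the annotated start, followed by at least 4 pyrimidines, was found for 13 members (20.6%), against 3.01% of all symbols. The windows below hold 25 bases, of which 10 lie before the annotated start, with the tract in capitals from its C nearest that start. Pyrimidines just before that C, as in Rps6 and Rps27, are in lower case.
Rps6: gaagtcgggcCTCTTTTTCgtgacg
Rps27: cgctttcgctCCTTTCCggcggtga
Rps27l: cctccccgccgCCTCTatcccggaa
Rpl36a: cccaggcaccgcctataaacttccg
Rpl36al: ccgtcgctcaggttcagttccgact
These windows are chr4:86857353-86857377 (minus strand) for Rps6, chr3:90213634-90213658 (minus) for Rps27, chr9:66946076-66946100 (plus) for Rps27l, chrX:134585644-134585668 (plus) for Rpl36a and chr12:69184053-69184077 (minus) for Rpl36al. Rps6, the small-subunit protein that S6 kinase phosphorylates, and Rps27 had such a C exactly at the annotated start. Neither Rpl36a nor Rpl36al had a tract within reach of its annotated start. Annotated starts can lie some bases away from the start in liver, so no tract in a window says only that these letters are not there. Over the whole 300 bases and on both strands, CTTCCGG, the core site of ETS factors, occurred for 24 members (38.1%) and 9.93% of all symbols. The letters AAGATGG, part of the YY1 site, occurred for 10 members (15.9%) and 7.28% of all symbols, and the TATA box letters TATAAA for 7 members (11.1%) and 15.7% of all symbols.

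Total counts per fetus ran from 14925778 to 28016953, with a median of 19658940. Of the 85 members, 82 passed the filter on low counts, and the 3 that did not were paralogs known mainly from testis or muscle. Rpl10l had 0 counts in all 20 fetuses, which allows at most 0.107 to 0.201 CPM (here the gene's count scaled to the library total) in a fetus, depending on its depth. Rpl39l had 27 counts over 12 fetuses and Rpl3l had 35 counts over 17 fetuses. One library stood apart: control fetus B_1, the first fetus of control litter B, had a mean log2 CPM over 76 canonical members that lay 0.37 above its group mean, against -0.17 to 0.13 for the other 19 fetuses. The canonical members are the 76 tested genes that are neither the second gene of a pair nor Rps19bp1, whose product binds Rps19 and is no ribosomal protein. In control fetus B_1 the mean log2 CPM of 13 erythroid markers was 8.09, the lowest of the 20 fetuses, and that of 10 hepatocyte markers was 12.45, the highest of the control fetuses. The mean log2 CPM of 4 exocrine pancreas markers was 5.28 there, against 0.44 to 1.34 in the other 9 control fetuses, and MNR fetuses B_1, E_1 and B_2 followed with 4.50, 3.93 and 2.95. Stellate cell (6.14), endothelial (5.95) and bile duct (3.42) markers were also highest in control fetus B_1 among the 20, and B cell precursor markers (0.73) lowest. The part of these markers in the ribosomal protein level of that fetus was not tested, and results that rest on litter B are given with and without it. The summed level of the hepatocyte markers ran from 151400 to 165100 CPM in control and from 146800 to 160800 CPM in MNR litters, with none at 0 in any litter, and that of the erythroid markers from 22520 to 37030 and from 24300 to 30690 CPM. The exocrine pancreas markers summed to 14.6 to 88.6 CPM in control and 27.1 to 70.7 CPM in MNR litters, with Prss1 and Try4 at 0 in at least 1 litter. Log2 fold changes were positive for 6 of 10 hepatocyte markers (median 0.04), 1 of 13 erythroid (-0.11), 6 of 6 megakaryocyte (0.25), 8 of 9 macrophage (0.12) and 8 of 8 neutrophil and myeloid precursor markers (0.26), and for 0 of 7 B cell precursor (-0.47) and 0 of 7 stellate cell markers (-0.26). The neutrophil and myeloid precursor markers summed to 1969 to 2164 CPM in control and 2141 to 3004 CPM in MNR litters. Blood stem and progenitor markers summed to 81.0 to 85.9 CPM in control and 86.4 to 109 CPM in MNR litters. Theirs were the only sums that did not overlap, with 4 of 6 tested markers positive (median 0.12) and Spink2 at 0 in at least 1 litter. No marker of these lists was called in edgeR, and their part in the results below was not tested.

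Ribosomal protein genes took overlapping shares of the RNA in the 2 groups of livers. They held 1.71, 1.97, 1.72, 1.89 and 1.78% of all counts in control litters A to E. They held 2.08, 1.80, 1.78, 1.92 and 1.83% in MNR litters A to E. The 2 groups overlapped over most of their range, with MNR litter A highest and control litter A lowest. The group means were 1.81% ± 0.112 (SD, n = 5 litters) in control and 1.88% ± 0.124 (SD, n = 5) in MNR, a difference of 0.0708 percentage points that is smaller than either SD. The difference was 0.0214 without MNR litter A, 0.0441 without control litter A, 0.110 without control litter B and 0.115 without control fetus B_1. It was 0.0162 with the first fetus of each litter alone and 0.109 with the second alone. Without the 4 fetuses highest in exocrine pancreas markers it was 0.133. Littermates differed by more than the group difference of 0.0708 in 6 of the 10 litters, from 0.136 percentage points in control litter A to 0.472 in control litter B. In the other 4 litters they differed by 0.00377 to 0.0207.

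**Figure D1:**
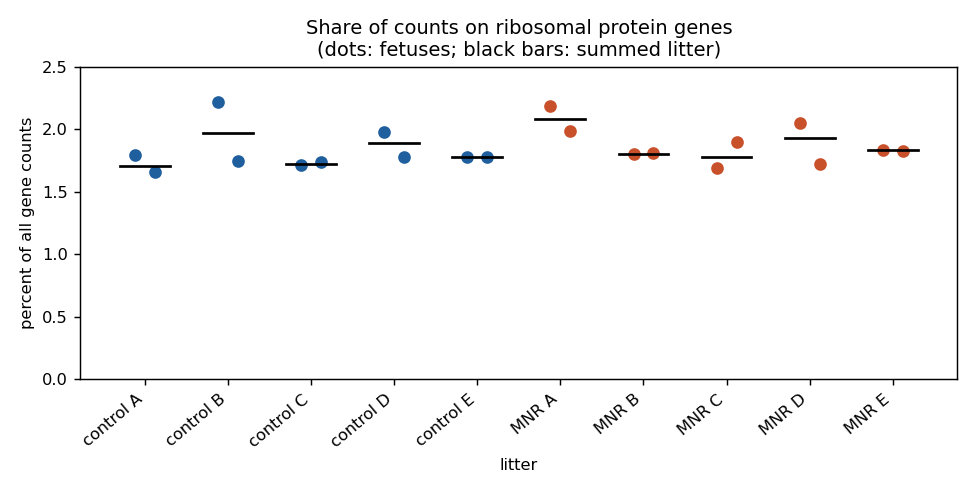
Percent of all gene counts that fell on the 85 cytosolic ribosomal protein genes, by litter. Dots are the 2 fetuses of a litter (blue control, orange MNR) and black bars the summed litter. Control fetus B_1 (2.22%) and MNR fetus A_1 (2.18%) are highest, and the litters of the 2 groups overlap.

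The ratio of large to small subunit counts was slightly lower in MNR litters, with overlap between the groups. Large-subunit genes took 1.05% ± 0.0632 of counts in control and 1.09% ± 0.0701 in MNR litters, and small-subunit genes 0.762% ± 0.0491 and 0.796% ± 0.0536 (SD, n = 5 each). The log2 ratio of large to small subunit counts ran from 0.45 to 0.48 in control litters and from 0.44 to 0.46 in MNR litters. Its mean was 0.464 ± 0.0103 in control and 0.452 ± 0.00890 in MNR (SD, n = 5 each), a difference of -0.0123 that is larger than either SD, and no test was run on it. With near copies added the difference was -0.0145, with 4 of 5 MNR litters below every control litter, and in the first fetus of each litter alone it was -0.0008. Per transcript length it was -0.00799, smaller than the control SD of 0.0109. The whole range of this ratio over 10 litters was thus far narrower than the range of the share itself.

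No single member passed the test between MNR and control litters. In edgeR's quasi-likelihood test, 0 of 82 members had an adjusted p under 0.05, against 117 of 17573 genes tested (0.666%). At an unadjusted p under 0.05 there were 3 members, 1 with a higher and 2 with a lower mean in MNR, while 19.6% of all genes tested were under that value. DESeq2 called 1 member, Rpl36al, against 6.62% of all genes tested. In 0 of 82 members were the litters of the 2 groups separate, against 4.50% of all genes tested. The 95% confidence interval of the log2 fold change lay within 1.25-fold in either direction for 77 members and within 1.5-fold for all 82 tested. Over all 17573 genes tested these counts were 7517 and 13262. Among the 4908 genes at least as abundant as the least abundant canonical member they were 3239 and 4486.

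The small differences that were measured were nearly all of 1 sign among the canonical members. The log2 fold change of MNR over control was positive for 70 of 76 canonical members, against 49.4% of all genes tested, with a median of 0.07 against -0.0027 over all genes. The large subunit had 40 of 45 positive with a median of 0.07, and the small subunit 30 of 31 with a median of 0.07. These genes varied together between fetuses, as described below, so the count of signs does not stand for that many separate measurements. Among genes at least as abundant as the least abundant canonical member, 55.4% of 4908 were positive. The median over the 82 tested members was 0.02 in the first fetus of each litter alone and 0.10 in the second alone. It was 0.04 with upper-quartile scaling, under which 59 canonical members were positive, and 55 were positive in the first fetus alone. The median was 0.04 without control litter A, 0.04 without MNR litter A and 0.11 without control litter B.

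**Figure D2:**
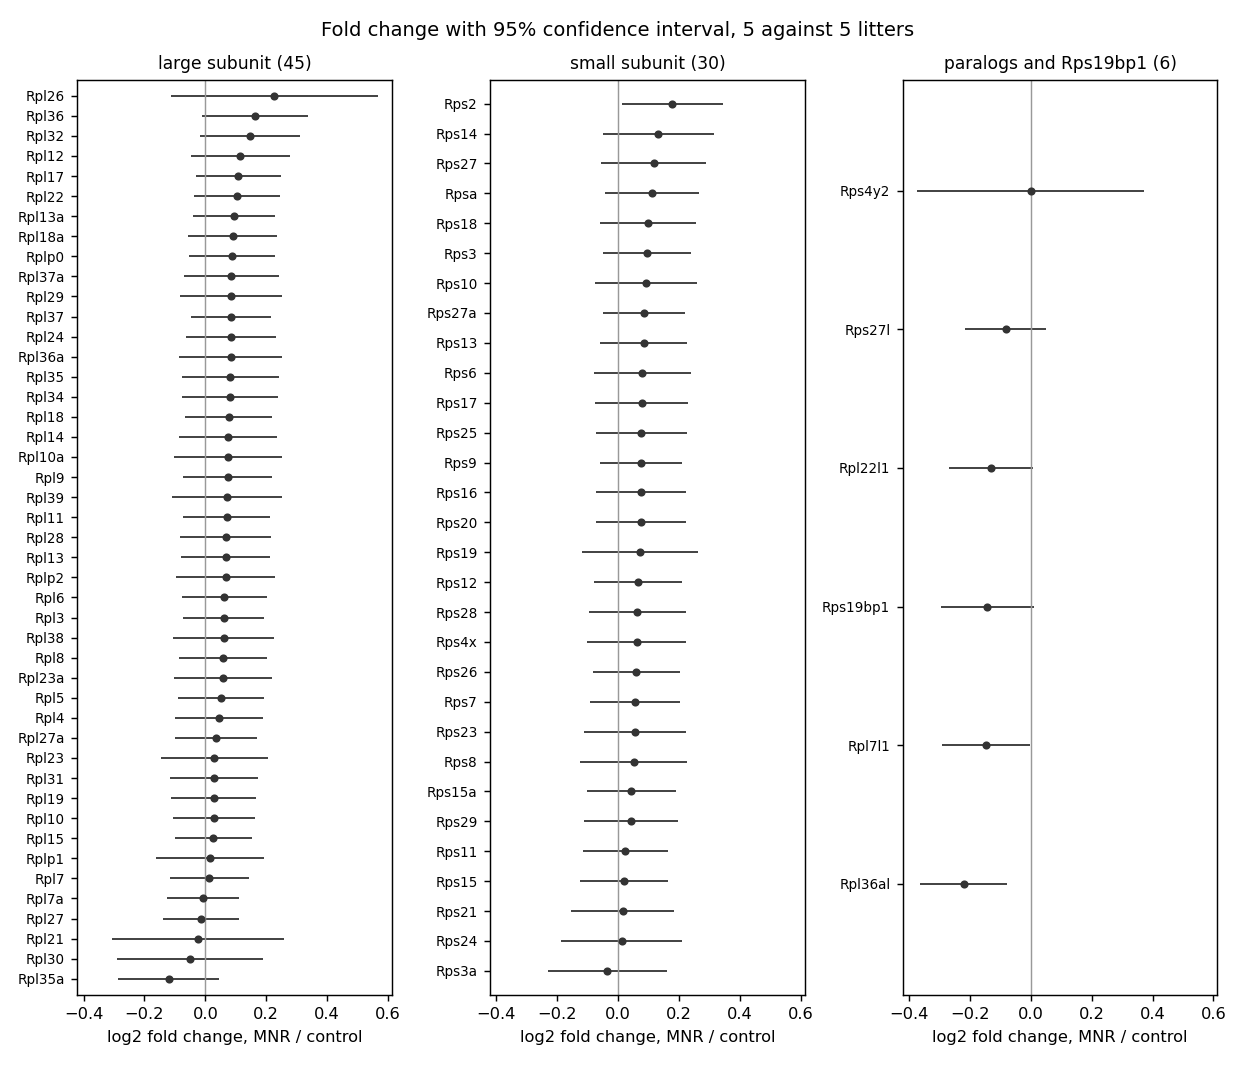
Log2 fold change of MNR over control for 81 of the 82 tested members, with the 95% confidence interval from edgeR (5 against 5 litters). The 45 large-subunit and 30 small-subunit genes shown lie mostly just above 0, and 4 of the 5 tested paralogs and Rps19bp1 lie below 0.

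Among the large-subunit genes, the stalk protein Rplp0 had 626, 717, 616, 689 and 682 CPM in control litters A to E. In MNR litters A to E it had 752, 691, 670, 725 and 698 CPM. The groups overlapped, with a log2 fold change of 0.09 ± 0.06 (SE) and an adjusted p of 0.495 in edgeR. Its partners Rplp1 and Rplp2 gave 0.02 and 0.07. Rpl5 and Rpl11, which bind Mdm2 together with 5S RNA when ribosome assembly stalls, gave 0.05 ± 0.06 and 0.07 ± 0.07 (SE). Rpl10, needed to release the last assembly factors, gave 0.03, and Rpl3, near the peptidyl transferase centre, gave 0.06. Rpl38, needed for translation of some Hox messages, gave 0.06, and Rpl39 of the exit tunnel gave 0.07. Rpl22, an RNA-binding protein that cells can live without, gave 0.10 ± 0.07 (SE). Each of these differences was smaller than the larger SD of the 2 groups.

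The canonical large-subunit genes with the highest and lowest estimates did not pass the test either. Rpl26, a regulator of p53 translation, had the highest estimate at 0.23 ± 0.16 (SE), with an adjusted p of 0.458. Its counts ran from 109 to 163 CPM in control and from 116 to 213 CPM in MNR litters, and its SD within groups over fetuses was 0.30 on the log2 scale. With near copies added it gave 0.06 ± 0.07 (SE) and was no longer the highest. Rpl36 gave 0.16 ± 0.08 and Rpl32 gave 0.15 ± 0.08 (SE), with adjusted p of 0.281 and 0.305 in edgeR. Both were above the control median in 5 of 5 MNR litters, and control litter B lay among the MNR values. Rpl35a was the lowest of the canonical genes at -0.12 ± 0.08 (SE, adjusted p = 0.415 in edgeR), and turned to 0.05 once the counts of its near copies were added.

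Of the small-subunit genes, Rps2, which sits near the messenger entry channel, had the smallest p. It had 259, 288, 272, 288 and 268 CPM in control litters A to E and 340, 290, 273, 349 and 305 CPM in MNR litters A to E. All 5 MNR litters were above the control median, and MNR litter C lay inside the control range. The log2 fold change was 0.18 ± 0.08 (SE) with an adjusted p of 0.226 in edgeR. It was 0.05 ± 0.07 once the counts of the near copies of Rps2, described below, were added. Rps6 had 199, 255, 210, 222 and 226 CPM in control litters and 249, 230, 218, 245 and 233 CPM in MNR litters, with a log2 fold change of 0.08 ± 0.07 (SE). Rps14 and Rps19, whose haploinsufficiency in people causes anaemia, gave 0.13 ± 0.08 and 0.07 ± 0.09 (SE). Rps3, also an endonuclease in DNA repair, gave 0.10, Rpsa, which doubles as a laminin receptor, gave 0.11, and Rps25, Rps26 and Rps27a gave 0.08, 0.06 and 0.08. Rps24 gave 0.01 and Rps4x gave 0.06. Rps2 (275 ± 13.2 and 311 ± 32.4 CPM, SD, n = 5 each) and Rps3 (544 ± 35.7 and 581 ± 32.4 CPM) differed by more than the SD of either group, the other genes named here by less than the larger of the 2 SDs, and none passed the test.

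Of the 5 second genes of pairs that were tested, 4 had a negative log2 fold change. Rpl36al had the smallest p of all members, with 82.0, 75.6, 80.9, 92.5 and 90.5 CPM in control litters A to E. In MNR litters A to E it had 75.4, 73.1, 66.9, 75.8 and 70.5 CPM. Each MNR litter lay below the control median, and the groups met only at control litter B and MNR litter D. The log2 fold change was -0.22 ± 0.07 (SE), with an adjusted p of 0.105 in edgeR over all genes. Without control litter B it was -0.26 with an adjusted p of 0.0417, DESeq2 gave -0.22 with 0.0349, and the range of adjusted p over leaving out each litter was 0.0417 to 0.198. Its protein twin Rpl36a gave 0.08 ± 0.08 (SE).

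Rpl7l1 gave -0.15 ± 0.07 and Rpl22l1 gave -0.13 ± 0.06 (SE), with adjusted p of 0.251 and 0.279 in edgeR. In both, 0 of 5 MNR litters were above the control median. With near copies added, Rpl7l1 gave -0.10 (adjusted p = 0.355 in edgeR) and Rpl22l1 gave -0.04 (0.762), with 60.5% of the summed Rpl22l1 counts on the copies. Of the 26505 counts on those copies, 18507 were on Orc5, a protein-coding gene whose symbol is not that of a ribosomal protein. By the measure of near copies given below, Orc5 shared 70.9% of its own stretches of sequence with Rpl22l1. The Rpl22l1 value with copies thus includes the counts on Orc5. Whether those counts came from Orc5 or from Rpl22l1 messages was not tested. Rps27l, a p53 target gene, gave -0.08 ± 0.06 (SE), and Rps4y2 gave 0.0002 ± 0.17 (SE). Rps19bp1 gave -0.14 ± 0.07 (SE) with an adjusted p of 0.282. The log2 fold changes were thus -0.22 to 0.0002 for the 5 paralogs, against -0.12 to 0.23 for the canonical members.

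Taking each second gene relative to its parent removes the scaling of the library from the comparison. The log2 ratio of Rpl36al to Rpl36a counts was -0.95, -1.44, -1.01, -0.89 and -0.94 in control litters A to E. It was -1.41, -1.31, -1.32, -1.33 and -1.39 in MNR litters A to E. Control litter B was the only control litter inside the MNR range or below it, and the other 4 control litters were all above every MNR litter. The means were -1.05 ± 0.23 in control and -1.35 ± 0.04 in MNR (SD, n = 5 each), a difference of -0.31. The exact permutation test over litters (two-sided, 5 against 5) gave p = 0.0476, or 0.119 after Benjamini-Hochberg adjustment over the 5 pairs.

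The other pairs followed a similar picture in which control litter B sat with or below the MNR litters. Rpl22l1 over Rpl22 was -1.72 ± 0.13 in control and -1.96 ± 0.09 in MNR (SD, n = 5 each; exact permutation p = 0.0238, adjusted 0.119). Rps27l over Rps27 was -0.23 ± 0.19 and -0.43 ± 0.09 (exact permutation p = 0.0794, adjusted 0.132). Rpl7l1 over Rpl7 was -2.84 ± 0.19 and -3.00 ± 0.07 (exact permutation p = 0.143, adjusted 0.179). Rps4y2 over Rps4x was -5.55 ± 0.25 and -5.66 ± 0.46 (exact permutation p = 0.659, adjusted 0.659). No ratio passed the threshold with all 10 litters. Without control litter B, the first 4 ratios differed by -0.40, -0.28, -0.29 and -0.23, in the order Rpl36al, Rpl22l1, Rps27l and Rpl7l1, and the 2 groups were separate in each. Control litter B was the one control litter that overlapped MNR in these 4 pairs, so leaving it out fixes that separation, and the exact permutation test then gives the smallest p that 4 against 5 litters allow. Leaving out any other single litter gave adjusted p of 0.119 to 0.337 for these 4. In the second fetus of each litter alone the exact permutation test gave them adjusted p of 0.0397, 0.0496, 0.0397 and 0.0496. In the first fetus alone they differed by -0.23, -0.19, -0.14 and -0.13, with adjusted p of 0.302, 0.0794, 0.302 and 0.302 (exact permutation). With control fetus B_1 left out and its littermate kept they differed by -0.33, -0.23, -0.24 and -0.18, each with an adjusted p of 0.0496 (exact permutation), and without the 4 fetuses highest in exocrine pancreas markers the adjusted p were 0.0595 to 0.0694. Control fetus B_1 stood out by high canonical members, which include the parent of each ratio. Leaving it out, as the second fetus of each litter alone also does, therefore favours separation, and these p-values are no separate support. With near copies added none of these ratios passed, at adjusted p of 0.159 to 0.208 (exact permutation), and Rpl22l1 then included the counts of Orc5. In control litter B the parents were high: Rpl36a had 206 CPM there against 159 to 173 in the other control litters. Rpl36al, Rpl7l1 and Rps27l were also lowest of the control litters there. Rpl36al had 75.6 CPM against 80.9 to 92.5 in the others, Rpl7l1 52.5 against 57.3 to 65.8, and Rps27l 53.1 against 53.5 to 62.6. Rpl22l1 was lower in control litter C than in control litter B.

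**Figure D3:**
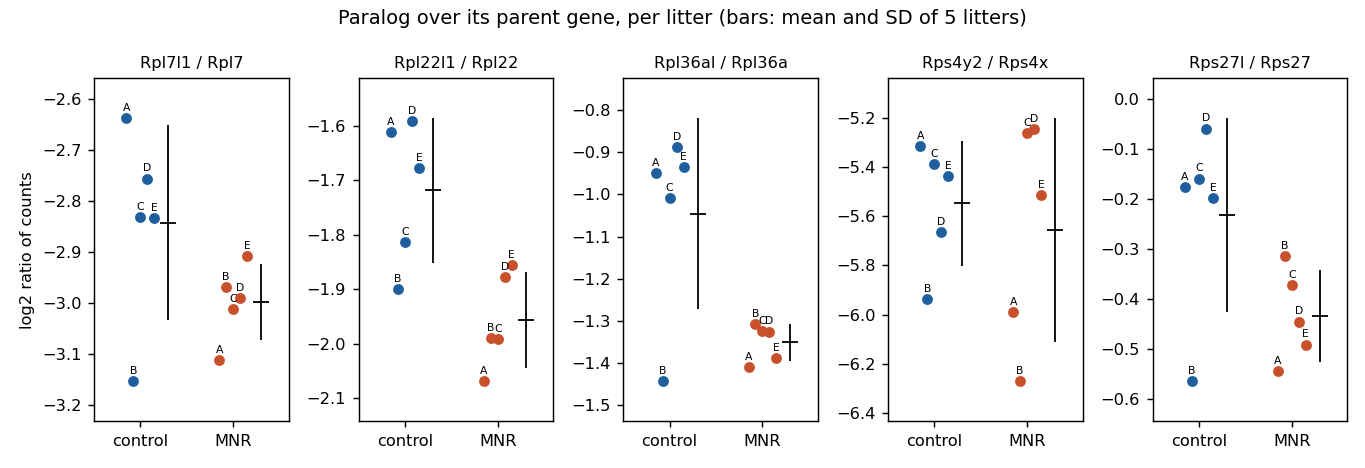
Log2 ratio of the counts of a paralog to those of its parent gene, 1 dot per litter with its letter (blue control, orange MNR), with mean and SD of 5 litters as black bars. In all but Rps4y2 over Rps4x, 4 of 5 control litters lie above all MNR litters and control litter B lies with or below them.

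Per transcript length, with all transcripts of a gene counted, each second gene held the smaller part of its pair. Rpl36al made up 27.7% ± 2.95 of the pair in control and 23.6% ± 0.61 in MNR litters (SD, n = 5 each). Rps27l made up 38.2% ± 3.07 and 34.9% ± 1.32, and Rpl22l1 31.2% ± 1.65 and 27.7% ± 1.59. Rpl7l1 took 4.83% ± 0.586 and 4.35% ± 0.210 of its pair, and Rps4y2 1.90% ± 0.309 and 1.81% ± 0.524. Counts outside coding transcripts made up 76.4% for Rpl36a, 44.9% for Rpl22, 53.9% for Rpl7, 19.7% for Rps4x and 49% for Rps27l. They made up 0% for Rpl36al, Rpl22l1, Rpl7l1, Rps4y2 and Rps27. The shares above therefore do not give the split of coding messages within a pair.

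The canonical members were among the most abundant messages, though their order depended on how near-identical genes were treated. Levels were expressed as TPM, counts divided by transcript length and scaled to the same total in each litter. Of the 76, 66 were among the 500 genes of highest TPM, and the median was 452 TPM with a range from 61.9 to 1142. Rps4x (1142 TPM, 1032 to 1296 over 10 litters), Rplp1 (1136), Rplp0 (1064) and Rpl13a (1042) were highest, and their ranges overlapped. Rpl29 (61.9 TPM), Rpl21 (85.4), Rpl17 (86.3) and Rpl31 (109) were lowest among the canonical members, and Rpl29 (55.2 to 74.0) lay below the ranges of Rpl17 and Rpl31. Over all tested members the lowest were Rps19bp1 (16.0 TPM), Rps4y2 (21.4), Rpl7l1 (33.3) and Rpl29.

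Most members share sequence with other genes of the annotation. A near copy was taken as another gene that shared at least 50 stretches of 31 bases with the main transcript of a member, and at least 30% of its own, without overlapping its exons. By this measure 73 members had 412 near copies, 278 of them annotated as pseudogenes. The near copies held 63.7 to 65.0% as many counts as the members in every fetus. Rpsa had 104269 counts and its copy Rpsa-ps10 had 104387, and Rps27 had 28545 against 28896 and 26014 for Gm9846 and Gm17241. The way in which reads that match several genes were assigned is stated in none of the sources used here. Of the near copies that passed the filter, 339 of 407 were above 0 in their log2 fold change, against 49.4% of all genes tested, and the median was 0.06. In edgeR and DESeq2 0 were called, against 0.666% and 6.62% of all genes tested. At an unadjusted p under 0.05 in edgeR 14 were higher and 2 lower, against 19.6% of all genes tested. Near copies share sequence with members, so their common sign is no separate evidence.

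Adding the copies to their members narrowed the spread of levels between members. The highest canonical member was 18.5 times the lowest as counted and 5.68 times the lowest with copies added, and the SD across members was 0.93 as counted and 0.45 with copies on the log2 scale. Rpl21 then had 1048 TPM, Rpl17 957 TPM, Rpl31 997 TPM and Rpl29 548 TPM, so the lowest positions as counted were not kept. Rpl22, with 308 TPM as counted and 324 with copies, became the lowest, and all 76 were among the 500 highest genes. For genes without any near copy, such as Rpl4 (1025 TPM), Rpl23 (1013), Rpl32 (1013), Rps9 (872), Rpl8 (826) and Rps3 (534), the level was the same on both counts. With the copies added, 0 members were called and 74 of the 76 canonical members had a positive log2 fold change.

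**Figure D4:**
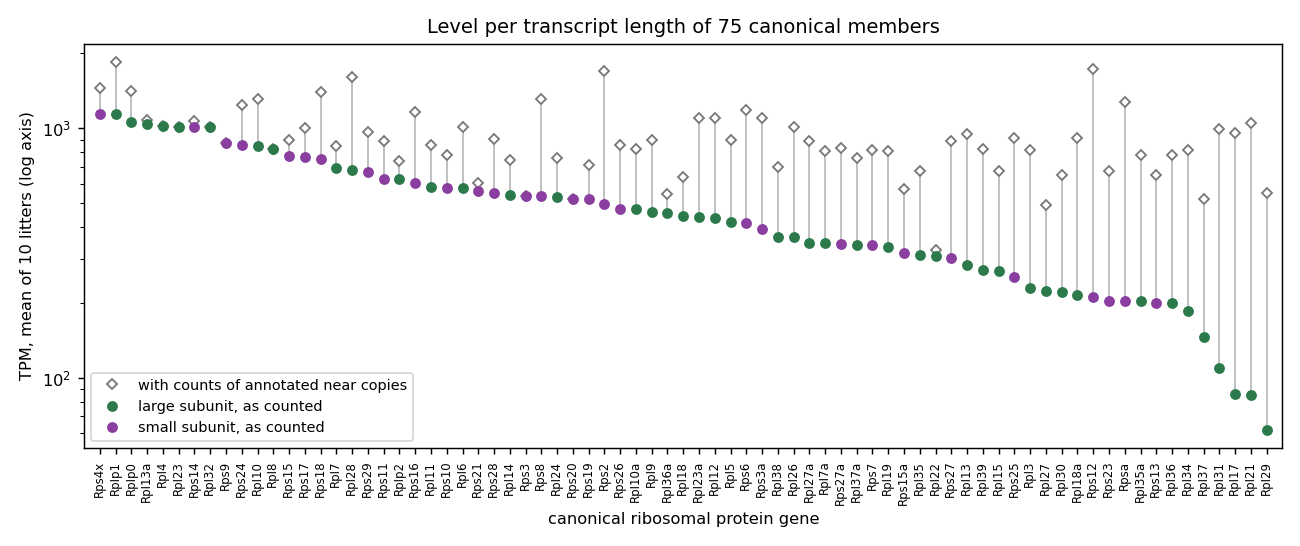
Level per transcript length (TPM, log axis, mean of 10 litters) of 75 of the 76 canonical members in order of the level as counted (filled, green large subunit, purple small subunit), with the level after adding counts of annotated near copies (open diamonds). The right-hand genes Rpl31, Rpl17, Rpl21 and Rpl29 move up most.

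Within groups, the canonical members moved together from fetus to fetus. The median pairwise correlation of log2 CPM around the group mean was 0.868 over 20 fetuses, with 99.3% of pairs positive. It was 0.866 within the large subunit, 0.867 within the small subunit and 0.870 between them. Fetuses share their library and its scaling, littermates share a dam, and near copies share reads, so these values are a description. For 76 mitochondrial ribosomal protein genes, which form the separate ribosome of mitochondria, the median was 0.143 over the same fetuses, for 65 ribosome assembly genes 0.396, and for 20 other messages with TOP motifs 0.306. Without control litter B and MNR litter A the canonical median was 0.757 and the mitochondrial one 0.140. Most assembly genes had fewer counts than most canonical members, and the part of counting noise in the differences between sets was not tested.

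Members differed in how closely they followed the others. Rplp2 (r = 0.979), Rps10 (0.977) and Rpl11 (0.976) were closest to the mean of the other canonical members over 20 fetuses. Rps4y2 (-0.161), Rpl7l1 (-0.137), Rps19bp1 (-0.0647) and Rpl21 (0.0730) were the 4 lowest, followed by Rps3a (0.208). Rpl36al (0.423) and Rps27l (0.380) were also low for members of this family. Rpl21, with 84.9% of its counts and those of its copies together falling on the copies, was the canonical gene least like the others.

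**Figure D5:**
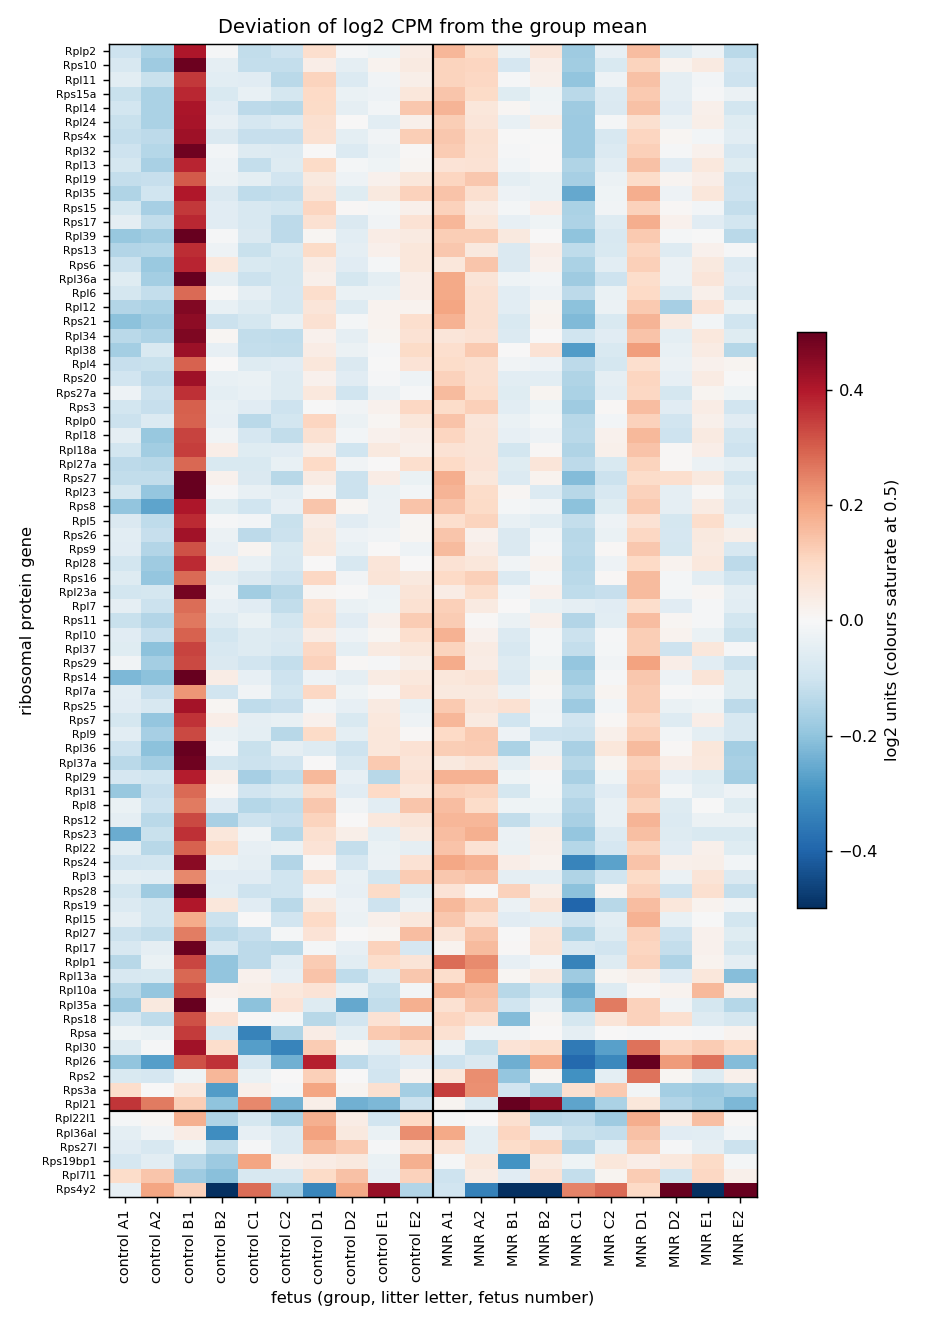
Deviation of log2 CPM from the group mean for 81 of the 82 members (rows, canonical above the line, in order of their correlation with the other canonical members) in 20 fetuses (columns, control left and MNR right). Control fetus B_1 is high in nearly every canonical gene, MNR fetus C_1 is low in most, and the genes below the line follow these stripes less closely.

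The split of member counts between transcript classes differed between the groups by less than the spread between litters. Protein-coding transcripts held 70.2% ± 0.163 of member counts in control and 70.1% ± 0.104 in MNR litters, and retained-intron transcripts 17.4% ± 0.0931 and 17.4% ± 0.126 (SD, n = 5 each). Transcripts marked for nonsense-mediated decay, a route by which several ribosomal proteins limit their own messages, held 2.71% ± 0.0472 and 2.71% ± 0.0513. Some members had most of their counts outside coding transcripts, among them Rps18 (81.4%), Rpl7a (78.0%) and Rpl36a (76.4%).

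The remaining genes of the pathway gave 1 call in edgeR. Of the other parts of the cytosolic ribosome, Fau and Gnb2l1 (Rack1) gave 0.11 and 0.06, and neither passed the test in edgeR or DESeq2, also at an unadjusted p. Among 65 tested genes of ribosome assembly and rRNA processing, 1 rose and 0 fell in edgeR, against 0.666% of all genes tested called. At an unadjusted p under 0.05 in edgeR 2 were higher and 12 lower, against 19.6% of all genes tested. The median was -0.06 and 50 of 65 were negative, against 8897 of 17573 genes tested. These genes partly varied together between fetuses (median pairwise correlation 0.396), so the signs do not stand for that many separate measurements. DESeq2 called 1 higher and 1 lower, against 6.62% of all genes tested. The one that rose was Sbds, which helps to release Eif6 from the new large subunit. It had 31.3, 30.7, 26.7, 29.6 and 29.3 CPM in control litters A to E. In MNR litters A to E it had 37.4, 37.7, 36.9, 36.6 and 38.8 CPM. All MNR litters were above all control litters, with a log2 fold change of 0.34 ± 0.05 (SE) and an adjusted p of 0.0257 in edgeR. Leaving out each litter in turn, the log2 fold change was 0.31 to 0.37 and the adjusted p 0.0123 to 0.0761, above 0.05 without any one of control litters A, C, D and E and MNR litters A, B and E. The adjusted p was 0.217 with the first fetus of each litter alone, 0.0523 without the 4 fetuses highest in exocrine pancreas markers and 0.0538 with hepatocyte markers as a covariate. Nhp2, a box H/ACA particle protein, gave -0.23 ± 0.06 and Mphosph10, of the small-subunit processome, gave -0.28 ± 0.09 (SE), with adjusted p of 0.0896 and 0.121 in edgeR, and DESeq2 gave Nhp2 an adjusted p of 0.0253.

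None of the other lists held a gene called by edgeR, and DESeq2 called 11 of their genes. Over all genes tested, 19.6% had an unadjusted p under 0.05 in edgeR, DESeq2 called 6.62% and 49.4% were positive. Shares near these are no result about a list. For RNA polymerase I and 5S supply, 0 of 18 passed in edgeR (3 at an unadjusted p under 0.05, 1 called by DESeq2), with Polr1a, the largest subunit of polymerase I, at 0.23 ± 0.07 and Znrd1, another of its subunits, at -0.27 ± 0.08 (SE). For other TOP messages of translation, 0 of 20 passed (1 unadjusted, 1 by DESeq2) and the median was 0.04, with Eef2, the elongation factor, at 0.13 and Nap1l1, a histone chaperone, at -0.17. For the noncoding host genes of snoRNAs, 0 of 7 passed (2 unadjusted, 1 by DESeq2) and 6 of 7 were negative, with Snhg4 at -0.34 ± 0.09 (SE, adjusted p = 0.0778 in edgeR). For initiation factors, 0 of 31 passed (7 unadjusted, 1 by DESeq2) with a median of -0.06, and Eif2s2, the beta subunit of eIF2, gave -0.25 ± 0.07 (SE, adjusted p = 0.0852 in edgeR). Among 22 regulators of TOP messages and ribosomal protein kinases 0 passed (4 unadjusted, 2 by DESeq2), with Tsc1, a brake on mTORC1, at 0.29 ± 0.08 (SE, adjusted p = 0.0809 in edgeR) and Eif4ebp3 at 0.64 ± 0.21. Among 10 genes of ribosomal stress and p53 and 10 transcription factors of ribosomal protein genes, 0 passed in edgeR or DESeq2, also at an unadjusted p, with Trp53 at -0.11 and Yy1 at 0.07. The 76 mitochondrial ribosomal protein genes had 0 called in edgeR (18 unadjusted, 5 by DESeq2) and a median of -0.08, with 55 negative and 21 positive, and Mrps25 had the smallest p at -0.28 ± 0.07 (SE). Of 131 ribosomal protein pseudogenes, 0 passed in edgeR or DESeq2 (9 unadjusted) and 104 were positive with a median of 0.07, against 49.4% positive over all genes tested. Many pseudogenes share sequence with members, so this sign is no separate evidence.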

How the data were processed

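RNA from the liver of 20 fetuses was sequenced, and the authors deposited raw counts per transcript for each fetus. Per the submitters' processing notes the build was mm9 and Bowtie2, FastQC, edgeR and DESeq2 were used, with no version or role given. Transcript counts were summed to genes of GENCODE M1 (NCBIM37), leaving out transcripts with no match (0.0788 to 0.154% of counts), and littermates were summed to 10 litters. The deposited gene table equalled these sums for 8.52 to 9.66% of genes and was not used.

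Genes with at least 10 counts in enough litters (filterByExpr) were scaled by TMM and tested with edgeR 4.0.16, by quasi-likelihood (model: group), with Benjamini-Hochberg adjustment over 17573 genes and a threshold of 0.05. The procedure was tested on simulated data. P-values measure the spread between litters, and intervals on 0 counts cover counting error only. Pair ratios used an exact permutation test over litters, chosen after the data were seen. Log2 CPM used a prior count of 2. The CPM given per litter for members and for genes of the other lists were scaled to library totals adjusted by TMM. Members and gene lists were chosen with earlier results of these data known. The text names a fixed set of well-studied members, the 5 with the smallest p, the 4 highest and 4 lowest per length, the 4 least like the others, and up to 3 genes per other list. Some further members, such as Rpl26, Rpl32, Rpl35a and Rpl7a, were named after their values were seen. No 2 fetuses of a group agreed within sampling noise (chi-square per degree of freedom of 9.78 or more in all 90 pairs). Alternatives were DESeq2 1.42.0, other scalings and filters, single fetuses, covariates, and leaving out litters. Some genes are included in all counts and medians but are not reported by name here.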

Additional observations from a re-analysis of the deposited data

Results flagged for a closer look

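Of 146 checks of 5 litters for a value far from the other 4, 7 were positive, where chance flags about 1 group in 20. Rpl21 had 76.6 CPM in MNR litter B against 47.7 to 54.6 in the other MNR litters. Rps19bp1 had 7.79 CPM in MNR litter B against 8.51 to 8.66 in the others. The log2 ratio of Rpl36al to Rpl36a was -1.44 in control litter B against -1.01 to -0.89 in the other control litters. The log2 ratio of Rps27l to Rps27 was -0.57 in control litter B against -0.20 to -0.06 in the others. Of the other genes named, Fau had 152 CPM in control litter B against 107 to 119 in the other control litters, Mrps25 had 8.49 CPM there against 10.3 to 11.0, and Yy1 had 61.0 CPM in MNR litter E against 58.0 to 58.8. Control litter B held control fetus B_1, in which the canonical members were 0.37 above the control mean on the log2 scale.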

How the results depend on the processing

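Over 29 alternatives, 66 named genes gave 1906 values, of which 1806 kept their direction and stayed on the same side of the threshold, 47 newly passed it (3 of them a member, Rpl36al), 10 lost it (all Sbds) and 43 changed sign. The count of members called was 0 in edgeR and 1 with DESeq2, 1 with fetuses as separate libraries and 0 to 1 when leaving out each litter. Positive canonical members numbered 55 to 74. Calls over all genes, 117 in the main analysis, were 178 with upper-quartile scaling, 1163 with DESeq2, 254 with a stricter filter, 875 at an adjusted p of 0.10, 2301 with fetuses as separate libraries, 0 and 499 with the first or second fetus alone, 14 with hepatocyte markers as a covariate and 0 to 843 without each litter. Among alternatives added after seeing the data, they were 326 without control litter B and MNR litter A, 296 without control fetus B_1 and 33 without the 4 fetuses highest in exocrine pancreas markers (control B_1 and MNR B_1, B_2 and E_1, which leaves 4 MNR litters); adding near copies was also chosen then. The cause of these changes was not tested. With the litter letter as a replicate block, 232 genes and 0 members were called and the median of members was 0.07; same-letter litters correlated at -0.01 to 0.18, and 2 of 5 control letters were closest to their own, so the letter is no evidence of pairing.

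The difference in the large to small subunit log2 ratio was -0.0008 with the first and -0.022 with the second fetus alone. Differences in pair ratios passed the threshold with the second fetus alone (Rpl7l1 -0.19, Rpl22l1 -0.28, Rpl36al -0.38, Rps27l -0.28). They also passed without control litter B and MNR litter A (-0.21, -0.25, -0.39 and -0.26) and without control fetus B_1 (-0.18, -0.23, -0.33 and -0.24). Each of these runs leaves out control fetus B_1, in which the parents were high, so they are not separate support. None passed with the first fetus alone (adjusted p 0.0794 to 0.302), with near copies (0.159 to 0.208; Rpl7l1 -0.12, Rpl22l1 -0.15, Rpl36al -0.30, Rps27l -0.20) or without the 4 fetuses highest in exocrine pancreas markers (0.0595 to 0.0694). Leaving out each litter they ranged from -0.23 to -0.10 (Rpl7l1), -0.28 to -0.21 (Rpl22l1), -0.405 to -0.27 (Rpl36al), -0.29 to -0.16 (Rps27l) and -0.21 to 0.0453 (Rps4y2), and Rps4y2 over Rps4x was 0.11 with the second fetus alone and 0.18 without those 4 fetuses.

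Sign changes among single genes were as follows. Under upper-quartile scaling Rpl10 was -0.0020, Rpl23 -0.0009, Rplp1 -0.0146, Rps24 -0.0178 and Rps4y2 -0.0291. With the first fetus alone they were -0.0016, -0.0248, -0.0311, -0.0397 and -0.28. Rps4y2 was -0.0094 with library totals only, -0.0002 with DESeq2, -0.0019 with the stricter filter, -0.0372 with the block, -0.0256 and -0.0673 with erythroid or hepatocyte markers as covariate, and -0.0038 with near copies. Rpl35a was 0.0496 with near copies. Rpl21 was 0.0025 without control fetus B_1, 0.0459 with the second fetus alone, 0.0221 and 0.0248 with the covariates and 0.0463 with near copies. Rps24 was -0.0031 and -0.0025 with the covariates, and Rplp1 -0.0377 without control litter B and MNR litter A. Leaving out each litter, Rpl21 ranged from -0.16 to 0.0576, Rpl23 from -0.0082 to 0.0973, Rplp1 from -0.0536 to 0.0644, Rps24 from -0.0356 to 0.0790 and Rps4y2 from -0.13 to 0.13. Depth limits Rpl10l, Rpl39l and Rpl3l, which were too low to test.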
